A study of Mus musculus with 21 samples.

Results

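Early primitive ectoderm-like (EPL) cells of the mouse cell lines D3 and A2 were compared by RNA sequencing, with 3 libraries from each line. The 6 libraries were all those labelled as EPL cells among the 21 libraries of the series, and the genes described are the 15866 autosomal genes with enough counts to be tested. The labels describe both lines as mouse embryonic stem cells from the inner cell mass. EPL cells of either line were made from ground-state cells, which grew in DMEM with 10% serum, 1000 U/mL of leukaemia inhibitory factor (LIF) and the inhibitor pair 2i. These cells were then kept for 4 days in the same medium, listed without 2i, with LIF lowered to 330 U/mL and L-proline added at 400 uM. Ground-state cells and naive cells (4 days without 2i) of both lines, and epiblast stem cells (EpiSCs) of A2, entered the same statistical model and are used only where stated. The EpiSCs had passed through a mouse after implantation of A2 cells and grew with bFGF and activin A. The sources used here do not give the strain, sex, passage or clonal state of the lines, or the origin of the replicates. Each line is a single line, and p-values measure the spread between these libraries, which may be technical.

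EPL cells are a culture model of the primitive ectoderm, the pluripotent epithelium that forms from the inner cell mass around implantation. In passing to this state, embryonic stem cells keep the core factor Pou5f1 (Oct4), lower naive factors such as Zfp42 (Rex1), and gain formative genes such as Fgf5 and the de novo DNA methyltransferases. LIF, which signals through STAT3, holds cells in the naive state, whereas FGF and ERK signalling moves them out of it. L-proline, taken up through an amino acid transporter, brings about the EPL state in culture.

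Total counts were between 15320599 and 23490527 in the 6 EPL libraries, and mitochondrially encoded transcripts took 1.24% to 1.93% of counts. Levels are given as counts scaled by TMM to a common library size (CPM) and differences as log2 of D3 over A2 with a standard error. A gene is called where its adjusted p was below 0.05 in edgeR's quasi-likelihood test with Benjamini-Hochberg adjustment over all genes tested. A2 EPL library 1 lay nearer to the D3 libraries (root mean square log2 difference 0.564 to 0.586) than A2 libraries 2 and 3 did (0.627 to 0.676), while pairs of libraries within a line differed by 0.356 to 0.451. Calls were therefore repeated without each of the 6 libraries in turn, and a list's count of 3 or more that moved by over 1.5 times is given with and without that library. Of 261 called members of the gene lists, 184 kept their call in all 6 repeats, 77 lost it in at least 1 and 53 in at least 3.

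Both sets differed from ground cells in the direction of the EPL state in the marker genes Zfp42 and Fgf5. Zfp42 was at 1143 ± 25.7 CPM in A2 ground cells and 875 ± 26.2 CPM (SD, n = 3) in A2 EPL cells, and at 971 ± 26.2 and 504 ± 34.3 CPM in the D3 cells. In naive cells, which also grew without 2i, Zfp42 was at 1049 ± 57.6 CPM in A2 and 1081 ± 57.4 CPM in D3. Fgf5 was at 0.0996 ± 0.0776 and 4.51 ± 0.845 CPM in A2 ground and EPL cells, and at 0.0155 ± 0.0268 and 24.4 ± 1.22 CPM in D3. T (Brachyury), the defining gene of the primitive streak, was near 0 in both lines, at 0.0591, 0.447 and 0.181 CPM in A2 and 0.324, 0.323 and 0.128 CPM in D3 (adjusted p = 0.95). Of the defining genes of other cell types, the visceral endoderm gene Ttr and the fibroblast gene Col3a1 had no count in A2 EPL cells and means of 0.018 and 0.0322 CPM in D3, and Afp, Elf5 and Tpbpa were not among the genes tested. Gata4 and other primitive endoderm markers were expressed and are given further on.

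Between the lines, 4675 of 15866 autosomal genes (29.5%) were called in EPL cells. D3 was higher for 2452 of them (15.5% of those tested) and lower for 2223 (14%). The median absolute log2 difference of a called gene was 0.57, and 1095 differed at least 2-fold, with 557 higher (3.51%) and 538 lower (3.39%) in D3. In 4447 of the called genes the 3 D3 libraries did not overlap the 3 A2 libraries. The call and the lack of overlap come from the same values, so this count is not separate support. The share without overlap over all genes tested was not counted. The median difference over all autosomal genes was 0.01 on the log2 scale. These shares are the background for the counts of each gene group below. In cultures sequenced as a whole, more cells of a state and more RNA per cell cannot be told apart.

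Most naive pluripotency factors were lower in D3. Of 19 tested, 16 were called lower, 0 higher and 3 were not called, with a median log2 difference of -0.58. Nr5a2, an orphan nuclear receptor that binds the Pou5f1 promoter (ENSMUSG00000026398, chr1:136842571-136960448, GRCm38), had 99.7, 139 and 129 CPM in A2 libraries 1, 2 and 3 and 49.5, 55.1 and 49.1 CPM in D3 libraries 1, 2 and 3. Every D3 library was thus below every A2 library, and the log2 difference was -1.26 ± 0.12 (adjusted p = 6.6e-08). Klf5, a Kruppel-like factor of the inner cell mass, went from 121, 149 and 138 CPM in A2 to 59.8, 63.6 and 56 CPM in D3 (log2 difference -1.19 ± 0.10). Tfcp2l1, a transcription factor downstream of LIF and STAT3 (ENSMUSG00000026380, chr1:118627945-118685168), had 297, 290.4 and 249.8 CPM in A2 and 125, 141 and 108 CPM in D3 (-1.16 ± 0.13, adjusted p = 8.2e-07). The groups did not overlap for either gene. Pecam1, an adhesion molecule found on naive cells, stood at 40.6, 36.7 and 39.3 CPM in A2 and 16.8, 19.12 and 18.4 CPM in D3, a log2 difference of -1.1 ± 0.08.

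The best known naive marker, the zinc finger gene Zfp42 (ENSMUSG00000051176, chr8:43295063-43306980), had 860.3, 859.8 and 905 CPM in the A2 libraries and 468, 508 and 536 CPM in the D3 libraries (log2 difference -0.79 ± 0.09, adjusted p = 8.7e-07). Nanog, a homeobox factor that opposes differentiation, had 340.1, 313 and 322 CPM in A2 and 181, 198 and 199 CPM in D3 (-0.75 ± 0.08, adjusted p = 6.2e-07). The highest D3 library was well below the lowest A2 library for both genes. Prdm14, which represses FGF receptor and DNA methyltransferase genes in naive cells, differed by -0.81 ± 0.12 and the homeobox gene Gbx2 by -0.73. Klf4 (-0.58), Tcl1 (-0.58), the secreted phosphoprotein Spp1 (-0.52), Esrrb (-0.45 ± 0.11, from 528, 426 and 413 to 312, 371 and 319 CPM) and Klf2 (-0.45) were also lower. Morc1 (-0.44), Fbxo15 (-0.33) and Jam2 (-0.23) completed the 16. Not called were Tbx3 (-0.15, adjusted p = 0.2), Tdh, the threonine dehydrogenase of mouse embryonic stem cells (-0.14), and Fgf4 (-0.11). Tbx3 was called lower once D3 library 2 was left out (-0.28, adjusted p = 0.020). Summed over the list, A2 libraries had 3859 to 3972 CPM and D3 libraries 2504 to 2728 CPM.

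General pluripotency factors moved less. Of 15 tested, 5 were lower in D3, 2 higher and 8 not called, and the median was -0.07. Pou5f1 had 1109.5, 1033 and 1080.2 CPM in A2 and 982, 1082 and 1183 CPM in D3, overlapping ranges with a log2 difference of 0.01 ± 0.10 (adjusted p = 0.95). Sox2, its partner on DNA, had 479.7, 471 and 459.7 CPM in A2 and 340.2, 368 and 352 CPM in D3 (-0.41 ± 0.07, adjusted p = 1.5e-04). Sox2 was therefore lower in all D3 libraries while Pou5f1 was not. Zfp281, a zinc finger factor of the exit from naive pluripotency (-0.45), Trim71 (-0.28) and Dppa4 (-0.24) were called lower along with Sox2 and Nanog, though Trim71 lost its call in 3 and Dppa4 in 4 of the 6 repeats. Lin28b, an RNA-binding protein that blocks let-7 maturation, was higher (0.44), as was Dppa3 (0.54), which lost its call in 4 of the 6 fits that left out 1 EPL library. The lower count was 3 without A2 library 2 or without A2 library 3, and 7 without A2 library 1.

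Formative and primitive ectoderm genes were more often higher in D3. Of 18 tested, 9 were higher, 2 lower and 7 not called (median 0.32). Fgf5, a growth factor of the postimplantation epiblast and the usual marker of primitive ectoderm (ENSMUSG00000029337, chr5:98254184-98277030), had 5.31, 3.63 and 4.59 CPM in A2 and 23.3, 24.2 and 25.7 CPM in D3. The D3 libraries formed a narrow group above all A2 libraries, and the log2 difference was 2.44 ± 0.23 (adjusted p = 3.7e-08). Sall2, a spalt-family zinc finger gene, had 35.6, 37.2 and 36.8 CPM in A2 and 112, 103 and 95.4 CPM in D3 (1.5 ± 0.10). Fgf15, an FGF ligand, had 14.2, 13.5 and 12.2 CPM in A2 and 29.2, 27.4 and 27.9 CPM in D3 (1.08 ± 0.13). Zic2 and Zic5, neighbouring zinc finger genes, differed by 1.03 ± 0.11 and 0.83 ± 0.11.

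The homeobox factor Otx2, which drives the change from naive to formative enhancers, had 57.9, 62 and 57.6 CPM in A2 and 105, 102 and 118 CPM in D3 (0.87 ± 0.10, adjusted p = 6.8e-07). Pou3f1 (Oct6), a POU factor of the same step, had 68.3, 66.9 and 58.5 CPM in A2 and 130.4, 135 and 124 CPM in D3 (1.01 ± 0.12). Dnmt3b, a de novo DNA methyltransferase, had 839, 827 and 712 CPM in A2 and 1354, 1308 and 1216 CPM in D3 (0.71 ± 0.08), and Dnmt3a differed by 0.56 ± 0.07. For these 4 genes the groups did not overlap. In the opposite direction, Lef1, a nuclear partner of beta-catenin, was lower in D3 (-0.62 ± 0.18, a call lost without A2 library 2 or 3), and so was the ETS factor Etv4 (-0.50 ± 0.08). Foxd3 (-0.02), Sox11 (0.07), Sox12 (0.08), Etv5 (-0.11), Grhl2 (-0.22), Myrf (-0.22) and Tcf15 (-0.40) were not called. The list therefore did not move as a block. Without A2 library 1 the counts were 9 higher and 4 lower, and without A2 library 2 they were 9 and 1. With all genes of chromosomes 1, 8 and 14 left out of the fit, 5 of 14 members were higher and 2 lower, and the median was 0.016. Chromosome 1, chromosome 8 and a stretch of chromosome 14, described further on, differed between the lines as regions. No member of this list lies in them, and outside them the count stayed at 9 higher and 2 lower of 18 (median 0.32). The members dropped from that fit are thus on the rest of chromosome 14.

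**Figure D1:**
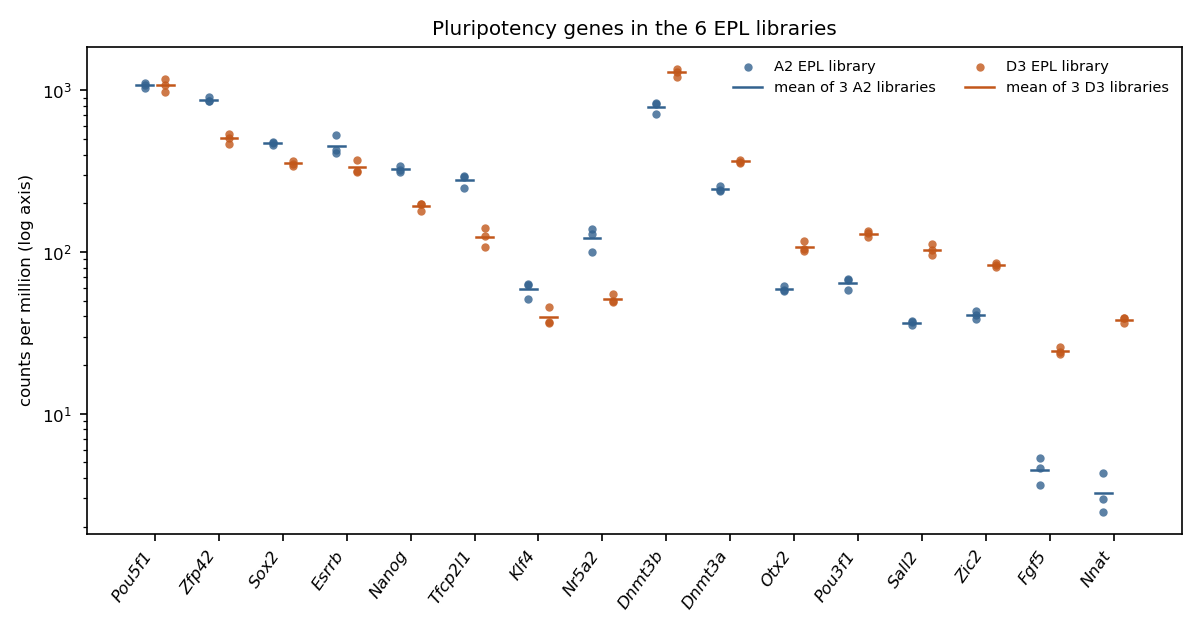
CPM (log axis) of pluripotency genes in each of the 6 EPL libraries, with A2 and D3 as points and the mean of 3 libraries as a bar. The Pou5f1 points of the lines overlap, the D3 points of Zfp42, Nanog, Tfcp2l1 and Nr5a2 lie below all A2 points, and those of Fgf5, Otx2, Pou3f1, Dnmt3a and Dnmt3b lie above them.

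Genes of the primed epiblast and of EpiSCs were also more often higher in D3, with 11 of 18 tested higher, 1 lower and 6 not called (median 0.86). Car4, a membrane carbonic anhydrase, had 6.02, 5.03 and 3.14 CPM in A2 and 14.3, 12.5 and 14.7 CPM in D3 (1.55 ± 0.19). The receptor tyrosine kinase gene Epha1 (1.27 ± 0.15), the tight junction gene Cldn6 (1.23 ± 0.12) and the paired keratins Krt18 (1.0 ± 0.21) and Krt8 (0.88 ± 0.17) were higher as well. The Wnt antagonist gene Sfrp2 (0.55), Wnt3 (0.92) and Eomes (0.67) were called too, with Wnt3 and Eomes at D3 means of 1.77 and 3.78 CPM and each uncalled in 3 of the 6 fits that left out 1 library. Nodal itself was the 1 member lower in D3.

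Within the Nodal pathway the ligand and its feedback inhibitors moved in opposite directions. Nodal, a TGF-beta ligand that sustains the epiblast, had 79.3, 83.4 and 87.8 CPM in A2 and 64, 54.5 and 58 CPM in D3 (-0.51 ± 0.07, adjusted p = 2.0e-05). Lefty2, a secreted Nodal inhibitor, had 146, 85.9 and 75.6 CPM in A2 and 181, 207 and 194 CPM in D3 (0.92 ± 0.23, adjusted p = 0.0044). Lefty1, its paralog, had 169, 71.9 and 62 CPM in A2 and 162, 184 and 195 CPM in D3 (0.84 ± 0.28, adjusted p = 0.026). A2 library 1 was inside the D3 range for Lefty1 and stood apart from the other A2 libraries for both inhibitors. The Lefty1 call was lost with DESeq2 (adjusted p = 0.065), and without A2 library 2 or 3 or D3 library 2 or 3. Foxh1, the DNA-binding partner of SMAD2 and SMAD3, was higher in all D3 libraries (0.46 ± 0.07). Inhbb, which encodes the beta-B subunit of activin and inhibin (ENSMUSG00000037035, chr1:119415465-119422248), was lower, with 28.3, 47.1 and 55.6 CPM in A2 and 9.47, 9.16 and 7.45 CPM in D3 (-2.34 ± 0.18). The coreceptor Tdgf1 (-0.07), Smad2 (-0.04), the receptor gene Acvr1b (-0.05) and Gdf3 (0.04) were not called. In all, 4 of 17 tested members of the pathway were higher and 2 lower.

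The same contrast was read against the A2 EpiSC libraries, a description set up after values had been seen and given with no test. Of 2383 autosomal genes at least 4-fold higher in A2 EpiSCs than in A2 ground cells, 631 (26.5%) were called higher in D3 EPL cells and 104 (4.36%) lower, and their median line difference was 0.41 in EPL cells and -0.05 in naive cells. Of 395 genes at least 4-fold lower in A2 EpiSCs, 11 (2.78%) were called higher in D3 EPL cells and 151 (38.2%) lower, with a median of -0.55 in EPL cells and -0.26 in naive cells. Over all autosomal genes the shares were 15.5% higher and 14% lower.

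Genes that answer LIF were more often lower in D3, although both cultures received LIF at 330 U/mL. Of 19 tested, 9 were lower, 1 was higher and 9 were not called (median -0.34). Tfcp2l1, Klf5, Klf4 and Gbx2, which are naive factors too, were 4 of the 9. The NF-kappaB cofactor gene Bcl3, a STAT3 target, had 46.2, 44.4 and 47.1 CPM in A2 and 26.4, 26.8 and 26.4 CPM in D3 (-0.79 ± 0.08). Il6st (gp130), the receptor chain that LIF shares with interleukin 6, had 86.5, 88.3 and 88.7 CPM in A2 and 62.2, 64.3 and 59.7 CPM in D3 (-0.50 ± 0.11, adjusted p = 0.0013), while Lifr, the other receptor chain, was not called (0.08). Pim1 (-0.35), Socs3, the feedback inhibitor of the pathway (-0.34, adjusted p = 0.041), and Stat3 (-0.30) were lower by smaller amounts, and Socs3 kept its call in 1 of the 6 repeats, that without A2 library 1. Ier2, an immediate early gene, was higher (0.28) but lost its call in each of the 6 repeats, and Jak1 (-0.08) and Junb (0.19) were not called.

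BMP response genes were split. Of 16 tested, 5 were lower, 3 higher and 8 not called. The inhibitors of differentiation Id3 (-1.05 ± 0.13), Id1 (-0.51 ± 0.13) and Id2 (-0.32), the ligand Bmp4 (-0.68 ± 0.09) and the inhibitory Smad6 (-1.06 ± 0.19) were lower in D3. Id1 had 87.4, 132 and 107 CPM in A2 and 83.4, 77 and 69.3 CPM in D3, so that A2 library 1 was close to the D3 range. The receptor gene Bmpr1a (0.37), Smad7 (0.53) and Msx1 (1.03) were higher, Msx1 at means of 0.809 and 1.71 CPM and called in 3 of the 6 fits with 1 library left out. Without A2 library 2 the counts were 3 lower and 3 higher.

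ERK feedback genes did not move one way, with 2 of 19 higher and 5 lower. Spry2, an inhibitor of receptor tyrosine kinase signalling, had 223, 226 and 217 CPM in A2 and 125, 123 and 123 CPM in D3 (-0.85 ± 0.06, adjusted p = 5.5e-10). Spred1 (-0.60), Myc (-0.58), Egr1 (-0.51) and Etv4 were lower, whereas Spry1 (0.46) and Dusp6, the ERK phosphatase (0.39), were higher. The Spry1 call was lost without A2 library 2 or 3 or D3 library 2, and the Egr1 call was lost in 4 of the other settings. Among FGF ligands and receptors, 4 of 14 were higher and 2 lower. Beside Fgf5 and Fgf15, Fgfr1 was higher (0.41 ± 0.07) and Fgfr2 lower (-0.58 ± 0.12), and Fgf17 went from 67.4, 76.7 and 71 CPM in A2 to 18.3, 16.3 and 17.7 CPM in D3 (-2.04 ± 0.09). All of these were expressed in both lines and differed in level. Fgf4, the ligand of naive cells, had 195, 191 and 199.8 CPM in A2 and 179.6, 175 and 186 CPM in D3 (adjusted p = 0.43).

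Of 18 Wnt target genes, 4 were higher and 5 lower in D3. Axin2, a feedback inhibitor in the destruction complex (0.95 ± 0.19), Nkd1 (0.82), Tcf7 (0.40) and the R-spondin receptor gene Lgr4 (0.44) were higher. Ccnd2, a D-type cyclin, had 15, 28.4 and 29.8 CPM in A2 and 4.93, 5.6 and 4.32 CPM in D3 (-2.31 ± 0.23), and Sp5 (-1.56), Notum (-0.77), Bmp4 and Lef1 were lower too. Targets of 1 pathway therefore differed in opposite directions. Notch genes were 4 higher and 2 lower of 16, with the atypical ligand gene Dll3 (1.3 ± 0.17), Mfng (0.81), Notch3 (0.52) and Hes6 (0.50) higher, and the receptor gene Notch4 (-1.53 ± 0.22) and Rfng (-0.49) lower.

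Primitive streak genes were at low levels in both lines, and none of 16 tested reached 5 CPM in either line's mean. The list had 2 higher and 3 lower members, 0 and 3 without A2 library 1, 0 and 2 without A2 library 2, 3 and 1 without A2 library 3, and 1 and 2 without D3 library 2. Neurectoderm genes were not raised as a group, with 1 of 13 higher and 3 lower. Nes, an intermediate filament gene of neural progenitors, had 28.8, 23.9 and 23.4 CPM in A2 and 84.2, 79.7 and 59.8 CPM in D3 (1.55 ± 0.17), whereas the neural factors Sox21 (-1.2 ± 0.22) and Pax6 (-1.15 ± 0.20) and the adhesion gene Ncam1 (-1.0 ± 0.16) were lower. Sox1, the earliest neurectoderm factor of the list, was not called (0.36, adjusted p = 0.31).

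Of 19 primitive endoderm markers, 8 were higher and 1 lower. Gata4, a defining factor of the lineage, had 1.77, 3.41 and 2.96 CPM in A2 and 4.02, 7.43 and 4.45 CPM in D3 (0.96 ± 0.25), and Gata6 had 0.472, 2.62 and 1.99 CPM in A2 and 2.46, 3.29 and 2.95 CPM in D3, which was not called (adjusted p = 0.085). The basement membrane gene Col4a1 had 21.7, 50.6 and 37 CPM in A2 and 69.6, 83.9 and 55.2 CPM in D3 (0.93 ± 0.21). A2 library 1 was lowest and D3 library 2 highest for both Gata factors and for Col4a1. Sox17 (1.01), Pdgfra (1.03), Dab2 (1.04), Col4a2 (0.92), Amn (0.84) and Srgn (1.14) were the other members called higher, and the laminin gene Lamc1 was lower (-0.80 ± 0.15). Without D3 library 2 the count fell to 3 higher and 1 lower, without A2 library 1 to 5 and 2, without A2 library 3 to 5 and 1, and without D3 library 3 to 5 and 1. Summed over the list, A2 libraries had 1406 to 1580 CPM and D3 libraries 1153 to 1332 CPM. The part that cells of this lineage had in the other differences was not tested. Fibroblast markers were 3 higher and 2 lower of 20. Their median was 0.72 in EPL, 0.14 in ground and -0.21 in naive cells, and 5 of the 20 reached 5 CPM in EPL cells. Vim (-0.73 ± 0.14) and the fibronectin gene Fn1 (-0.70 ± 0.17) were lower, and Col1a1 (1.54 CPM in D3 against 0.62 in A2), Twist1 and Tagln were higher at low levels. Trophectoderm markers were 3 higher and 2 lower of 10 (median -0.59), the higher ones being keratins, and 4 of the 10 reached 5 CPM. Tfap2c, a factor shared by trophectoderm and naive cells, had 65, 49.1 and 44.2 CPM in A2 and 16.7, 18.4 and 18 CPM in D3 (-1.58 ± 0.10).

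Epithelial genes that were called were mostly higher in D3. In the list of epithelial and mesenchymal identity, 10 of 21 were higher and 4 lower (median 0.42). Of the 10 higher members 9 encode epithelial proteins, Twist1 being the exception, but the epithelial members tested were not counted apart. Cdh1 (E-cadherin), the adherens junction protein of pluripotent epithelia, had 473, 454 and 427 CPM in A2 and 823, 799 and 725 CPM in D3 (0.79 ± 0.07, adjusted p = 4.5e-08). The claudin gene Cldn7 had 13.2, 7.04 and 6.52 CPM in A2 and 28.3, 27.1 and 26.6 CPM in D3 (1.62 ± 0.20), with A2 library 1 the highest of its line. The occludin gene Ocln (1.42 ± 0.15), Cldn3 (1.24), the splicing regulator Esrp2 (0.60) and Epcam (0.42 ± 0.08) were higher as well. On the mesenchymal side Vim, Fn1 and Zeb1 (-0.65) were lower, and so was the epithelial factor Grhl3 (-0.53). Snai1 was not called (-0.09).

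Genes of the extracellular matrix and its receptors went both ways, with 7 of 22 higher and 8 lower. The basement membrane linkers Nid1 (-1.22 ± 0.16) and Nid2 (-0.62 ± 0.10), the perlecan gene Hspg2 (-0.73 ± 0.25, uncalled in 4 of the 6 repeats) and Lamc1 were lower. Lamc1 had 546, 708 and 696 CPM in A2 and 413, 402 and 306 CPM in D3. Among integrins, the fibronectin receptor subunit Itga5 was lower (-0.69), and Itgb1 (0.60 ± 0.09) and Itgav (0.60) were higher. The list's totals overlapped between the lines, at 2914 to 3672 CPM in A2 and 2301 to 2948 CPM in D3.

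Paternally expressed imprinted genes were more often higher in D3, with 12 of 23 higher and 1 lower (median 0.48). Nnat, a proteolipid gene active in neural and pluripotent cells (ENSMUSG00000067786, chr2:157560078-157562522), led the list of genes higher in D3 outside pseudogenes, with 2.48, 4.3 and 2.96 CPM in A2 and 36.2, 39.2 and 39.2 CPM in D3 (3.55 ± 0.19, adjusted p = 1.1e-11). Plagl1, a zinc finger gene of the imprinted network, had 1.24, 0.838 and 0.724 CPM in A2 and 5.12, 5.28 and 4.2 CPM in D3 (2.36 ± 0.33). The neighbours Snrpn (0.91 ± 0.09), Ndn (1.43 ± 0.10), Magel2 (1.4 ± 0.22) and Peg12 (1.28), all from the Prader-Willi syndrome region, were higher too. Snrpn had 109.7, 92.3 and 98 CPM in A2 and 178, 192 and 193 CPM in D3. Impact (0.74 ± 0.09), Mest (0.48 ± 0.10), Zdbf2 (0.52), Sgce (0.82), Mcts2 (0.66) and Zrsr1 (0.57) made up the rest, and Rtl1 was lower (-0.60). Zdbf2 and Rtl1 each lost their call in 4 of the 6 repeats. Peg10 (0.08), Peg3 (0.13), Igf2 (0.09) and Dlk1 (0.15) were not called. Nnat, Mcts2 and Zrsr1 lie within introns of other genes, and the kit does not mark strand, so reads of host transcripts could be counted for them.

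Maternally expressed imprinted genes had no such direction, with 3 of 19 higher and 5 lower (median -0.07). H19, a noncoding RNA that shares its imprinting control with Igf2, had 2.01, 2.74 and 2.11 CPM in A2 and 11.4, 12.9 and 11.1 CPM in D3 (2.36 ± 0.24). Calcr, the calcitonin receptor gene, went from 3.96, 3.35 and 2.78 CPM to 13.9, 13.2 and 11.9 CPM (1.95 ± 0.21), and the noncoding RNA Rian was higher by less (0.29), a call lost in 4 of the 6 repeats. Cdkn1c, a CDK inhibitor (-0.60), Grb10 (-0.55 ± 0.11), Phlda2 (-0.50), Slc22a18 (-1.06) and Ascl2 (-1.06) were lower. Meg3 (-0.21) and Igf2r (-0.22) were not called.

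Genes that write, keep and remove DNA methylation went both ways, with 5 of 16 higher and 7 lower. The de novo enzymes Dnmt3a and Dnmt3b were higher in D3, as given above, but their cofactor Dnmt3l was lower, with 546, 589 and 532 CPM in A2 and 433, 417 and 401 CPM in D3 (-0.42 ± 0.08). Uhrf1, which brings Dnmt1 to replicated DNA, had 675, 687 and 653 CPM in A2 and 496, 462 and 462 CPM in D3 (-0.51 ± 0.08), and Dnmt1 differed by -0.27 ± 0.10 (adjusted p = 0.047). Uhrf2, the paralog of Uhrf1, was higher (0.63 ± 0.08). Zfp57, a zinc finger protein that protects imprints, had 265, 413 and 427 CPM in A2 and 213, 182 and 177 CPM in D3 (-0.95 ± 0.13), and its partner Trim28 differed by -0.28 ± 0.08. Among the demethylating dioxygenases, Tet2 was lower (-0.51), Tet3 higher (0.43) and Tet1 not called (-0.37). Of these, Tet2 lost its call in 5, Dnmt1 in 4 and Tet3 in 3 of the 6 repeats. Without A2 library 2 or 3 the lower count of the list was 4.

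None of 19 germline genes was higher and 7 were lower in D3 (median -0.28). Tex19.1, active in germ cells and pluripotent cells, had 70.3, 99.6 and 108 CPM in A2 and 31.4, 32.1 and 33 CPM in D3 (-1.53 ± 0.12), and the piRNA pathway gene Piwil2 had 24.4, 29.6 and 26.8 CPM and 10.1, 7.11 and 7.83 CPM (-1.7 ± 0.14). Sohlh2 (-1.54), Stra8, which gates entry into meiosis (-1.29), Stk31 (-0.89), Hormad1 (-0.57) and Mael (-0.43) were lower, and Dazl (0.19) and Ddx4 (0.22) were not called. Polycomb subunits were 2 higher and 8 lower of 25. The PRC2 core subunits Eed (-0.41 ± 0.07) and Suz12 (-0.39 ± 0.08) and the cofactor Jarid2 (-0.37 ± 0.09) were lower while the catalytic subunit Ezh2 was not called (-0.04), and the reader gene Cbx2 was higher (0.62). Of 21 Hox genes 1 was called, Hoxd13 (0.94), which lost its call in 4 of 6 fits without 1 library. The 2-cell-like genes, whose near-identical copies make their counts uncertain, had 1 called member of 14, Tcstv1, at under 1 CPM. The count was 0 without A2 library 1, D3 library 1 or D3 library 2 and under a stricter filter on low counts, and 3 without A2 library 3. Tcstv1 lost its call in 4 of the 6 repeats and with DESeq2 (adjusted p = 0.059).

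Amino acid response genes were more often lower in D3. Atf4, the transcription factor at its centre, had 249.8, 236 and 248 CPM in A2 and 134, 149.9 and 157 CPM in D3 (-0.74 ± 0.07, adjusted p = 6.3e-08). With its targets, 10 of 25 were lower, 2 higher and 13 not called (median -0.20). Slc7a1, a transporter of cationic amino acids, had 117, 144 and 148 CPM in A2 and 76.3, 82.8 and 68.9 CPM in D3 (-0.84 ± 0.14). Nupr1, a stress-induced chromatin protein, had 5.91, 4.58 and 5.43 CPM and 1.62, 2.15 and 2.4 CPM (-1.34 ± 0.22). Cth, which makes cysteine (-0.72), Trib3 (-0.64), Sesn2 (-0.54), Stc2 (-0.56), the serine pathway enzymes Shmt2 (-0.37) and Psat1 (-0.34), and Aldh1l2 (-0.89) were lower too. Slc7a11, the cystine transporter (0.49), and Atf3 (0.62) were higher but lost their calls in 3 and 5 of the 6 repeats, and Asns, the asparagine synthetase (-0.19, adjusted p = 0.073), Ddit3 (-0.31) and Phgdh (0.06) were not called.

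Of 15 proline genes, 1 was higher and 2 were lower, beside 29.5% called over all genes. The count was 2 and 2 without A2 library 1 and 2 and 3 without D3 library 3. Slc38a2 (SNAT2), an L-proline transporter of these cells, was not called (-0.06, adjusted p = 0.72). Aldh18a1, the first enzyme of proline synthesis (-0.37 ± 0.06), and Prodh, which oxidises proline (-0.42 ± 0.09), were lower, and the transporter gene Slc6a15 was higher (0.99 ± 0.12).

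Cholesterol synthesis genes were more often higher in D3, with 12 of 23 called higher and 1 lower (median 0.27), but this count depended on single libraries. Msmo1, a sterol oxidase, had 67.6, 49 and 49.5 CPM in A2 and 90.1, 98 and 104 CPM in D3 (0.82 ± 0.14), and Fdps had 153, 92.1 and 80.5 CPM and 135, 150.4 and 157 CPM (0.45 ± 0.17, adjusted p = 0.0496, a call kept in 1 of the 6 repeats, that without A2 library 1). A2 library 1 was the highest of its line for both and lay inside the D3 range for Fdps. Cyp51 (0.66), Mvd (0.60) and Dhcr7 (0.52) were higher, and Hsd17b7 was lower (-0.37). The higher count was 5 without A2 library 2 or without A2 library 3, 7 without D3 library 2, 6 without D3 library 3, 7 in a fit of the 6 EPL libraries alone, and 17 without A2 library 1. Glycolysis genes were 2 higher and 5 lower of 20, or 3 and 8 in the fit of the 6 EPL libraries alone, and the higher count was 1 in each of the 6 repeats. Hexokinase Hk2 had 275, 354 and 317 CPM in A2 and 196, 180.2 and 136 CPM in D3 (-0.89 ± 0.11), Pfkp (-0.78), Hk1 (-0.52), Slc2a3 (-0.47) and Ldhb (-0.47) were lower, and Pkm (-0.06) was not called. Among 28 glutathione S-transferase and xenobiotic genes, 7 were lower and 1 higher, or 7 and 4 without A2 library 1, 5 and 0 without A2 library 3 and 7 and 0 without D3 library 3. Gstp1 had 69.6, 62.9 and 65.4 CPM in A2 and 31.1, 33.6 and 35.7 CPM in D3 (-0.98 ± 0.09), beside its near-identical neighbour Gstp2 (-1.51), with which it may share reads. The betaine and methionine cycle list was 2 higher and 2 lower of 18.

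Genes of MHC class I and antigen presentation were at low levels and more often higher in D3, with 14 of 20 higher and 1 lower (median 0.62), and 7 of the 20 reached 5 CPM. H2-K1, a classical class I heavy chain, had 28.6, 18.5 and 20.04 CPM in A2 and 37, 35.2 and 36.1 CPM in D3 (0.69 ± 0.13). B2m, the shared light chain, had 11.9, 6.09 and 5.31 CPM and 12.9, 12.2 and 10.8 CPM (0.62 ± 0.19), with A2 library 1 inside the D3 range. The immunoproteasome gene Psmb8 (2.02 ± 0.45), the class I transactivator Nlrc5 (1.45 ± 0.33) and the peptide transporter genes Tap2 (0.86) and Tap1 (0.44) were higher, B2m and Tap1 losing their calls in 4 of the 6 repeats, and H2-M5 was lower (-0.64). The H2 genes are a family of like sequences, and their counts are uncertain. Without A2 library 2 the list had 5 higher members and without A2 library 3 it had 8. Interferon-stimulated genes did not share this direction, with 5 of 32 higher and 4 lower. Bst2 (tetherin) had 54.4, 35.4 and 37.6 CPM in A2 and 75, 80.4 and 97.7 CPM in D3 (0.99 ± 0.14), whereas the RNA sensor gene Ddx58 (RIG-I) had 42, 51.3 and 52.6 CPM and 24.7, 27.4 and 25.3 CPM (-0.91 ± 0.13), and the paralogs Oas1a (-2.29) and Oas1g (-1.51) and Ifitm1 (-0.31) were lower.

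Targets of p53 were mostly not called in EPL cells, with 1 higher and 4 lower of 21. Pmaip1 (Noxa), a proapoptotic BH3-only gene, had 20.5, 19.9 and 17.3 CPM in A2 and 44.5, 43.5 and 41.7 CPM in D3 (1.17 ± 0.09), and Gadd45a had 34.2, 39 and 38.6 CPM and 18.1, 15.3 and 18.1 CPM (-1.12 ± 0.08). Tnfrsf10b (-0.85), Sesn2 and Btg2 (-0.39) were lower, and Cdkn1a (0.17) and Mdm2 (0.06) were not called. The fit of the 6 EPL libraries alone had 7 lower. Apoptosis regulators were 5 higher and 1 lower of 18, with Bcl2l1, which protects cells (0.30), and Bak1, which permeabilises mitochondria (0.29), among those higher. Among G1 regulators 4 of 19 were higher and 5 lower. The D-type cyclins Ccnd2 and Ccnd3 (-0.64 ± 0.07) and the retinoblastoma gene Rb1 (-0.72 ± 0.14) were lower, while Ccnd1 was not called (-0.15), Cdk4 was higher (0.25, uncalled in 5 of the 6 repeats) and Ccne2 was higher (0.46). The higher count of this list was 2 without A2 library 1, 2 or 3 or D3 library 2, and 1 without D3 library 3.

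**Figure D2:**
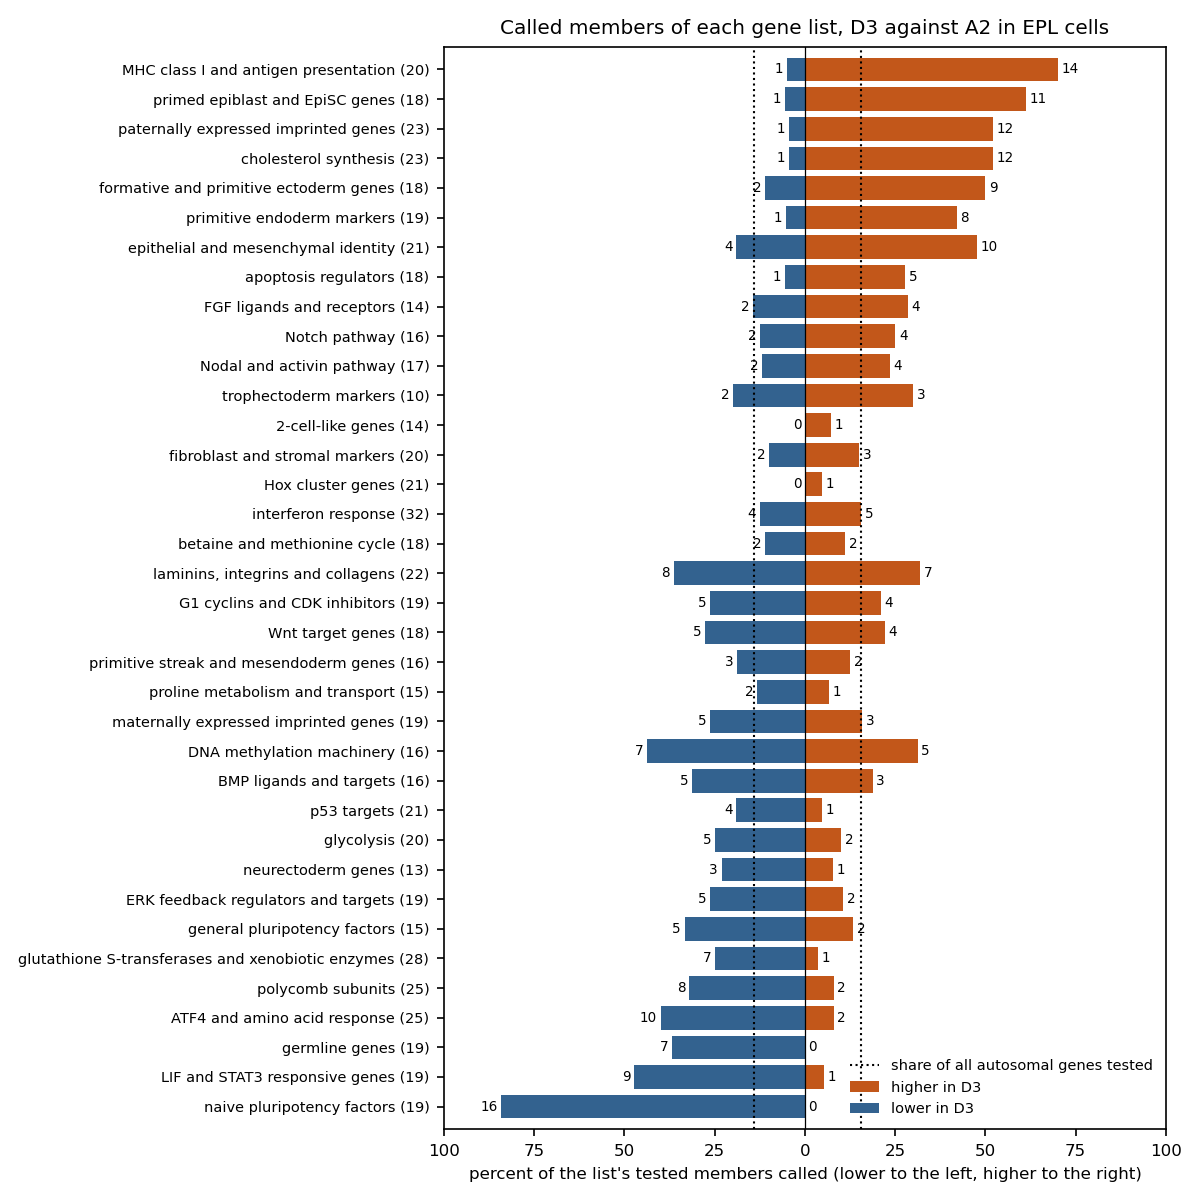
Percent of the tested members of each of 36 gene lists called higher (right) or lower (left) in D3 than in A2 EPL cells, with the share of all autosomal genes tested as dotted lines. Naive factors have 16 of 19 members lower and 0 higher, while primed genes have 11 of 18 higher and 1 lower.

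The largest differences were found in genes outside these lists as well as in them. Among genes with at least 5 CPM in the higher line and no overlap, the highest in D3 included Nnat, Fgf5, Trim67 (2.39), H19, Ftl1, Has2, Sema6a, Tmc7, Htatip2, Nrcam and Adcy7. Sema6a, a transmembrane semaphorin, had 15, 13.5 and 10.7 CPM in A2 and 62.3, 58 and 51.9 CPM in D3 (2.13 ± 0.16). Has2, a hyaluronan synthase, had 3.9, 2.35 and 2.23 CPM and 13.9, 11.9 and 11.8 CPM (2.15 ± 0.21). Tmc7 (2.1 ± 0.17), Htatip2 (2.01 ± 0.17), the adhesion gene Nrcam (1.96 ± 0.29) and the adenylyl cyclase Adcy7 (1.96 ± 0.21) followed.

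At the other end, Myt1, a zinc finger gene of neural cells (ENSMUSG00000010505, chr2:181763332-181827797), had 4.9, 5.36 and 5.73 CPM in A2 and 0.13, 0.108 and 0.0428 CPM in D3. It had 274 counts in A2 and 5 in D3, a ratio of 61.1 between scaled counts (95% interval 25.9 to 190, counting error alone). Napsa, an aspartic protease gene (ENSMUSG00000002204, chr7:44572380-44586862), had 15.1, 14.1 and 12.9 CPM in A2 and 1.43, 1.13 and 0.985 CPM in D3 (-3.59 ± 0.18), and the NLR-family gene Nlrp4a (ENSMUSG00000040601, chr7:26435113-26476142) had 11.6, 11.2 and 11.9 CPM and 1.62, 1.72 and 2.23 CPM (-2.62 ± 0.18). The D3 libraries were far below the A2 libraries in all 3 genes. Inhbb and Ccnd2 came next, then the matrix gene Tgfbi (-2.25 ± 0.14), Cpsf4l (-2.22 ± 0.12), the chemokine receptor Ackr3 (-2.21 ± 0.19), Fgf18 (-2.21 ± 0.25), Arl14epl (-2.19 ± 0.12) and the calcium pump Atp2b4 (-2.17 ± 0.23). Mir692-1, the lowest by fold once pseudogenes were left out, is described with the ferritin genes.

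The EPL differences were then set beside those of the same lines in ground and naive cells, where 3212 (20.2%) and 4757 (30%) of the autosomal genes were called. Of the genes called in EPL cells, 1449 were called in the same direction in ground cells (31.0% of the EPL calls and 45.1% of the ground calls) and 276 in the opposite direction. With naive cells 2094 shared the direction (44.8% and 44.0%) and 226 did not, and 1222 (26.1%) were called in the same direction at all 3 stages. Whether a line difference in EPL cells departed from the mean of the ground and naive differences was tested directly, and 2561 genes (16.1%) were called, 1404 towards higher and 1157 towards lower values in D3. Of the genes called by at least 2-fold in EPL cells, 449 (41.0%) were among them.

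The naive factors differed from the other stages more often than that background, with 11 of 19 called, all towards lower values in D3 EPL cells. Their median line difference was -0.06 in ground, -0.23 in naive and -0.58 in EPL cells. Klf2 went from 0.40 in ground and 0.44 in naive to -0.45 in EPL cells (adjusted p of the change = 4.6e-04), Spp1 from 0.30 and 0.62 to -0.52 (1.4e-07), and Tcl1 from 0.40 and 0.75 to -0.58 (1.3e-04). For these 3 genes the difference was above 0 in both other stages and below 0 in EPL cells. Primed genes had medians of 0.20, 0.21 and 0.86, with 6 of 18 called towards higher and 1 towards lower values. Formative genes had similar medians at the 3 stages (0.36, 0.36 and 0.32), with 2 called each way. The amino acid response had medians of 0.16, 0.03 and -0.20, and 16 of 25 members were called, 14 towards lower values. Primitive endoderm markers had medians of -0.25, -0.13 and 0.77, with 6 of 19 called higher and 1 lower. Targets of p53 had medians of -0.42, -0.49 and -0.07, and 12 of 21 were called towards higher values. Proline genes had medians of -0.10, -0.09 and -0.06, and 6 of 15 were called, 4 towards higher and 2 towards lower values. Perp, a p53 effector at desmosomes, went from -1.87 in ground to -0.75 in naive and -0.18 in EPL cells, and Ccng1 from -0.48 and -0.70 to 0.15.

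**Figure D3:**
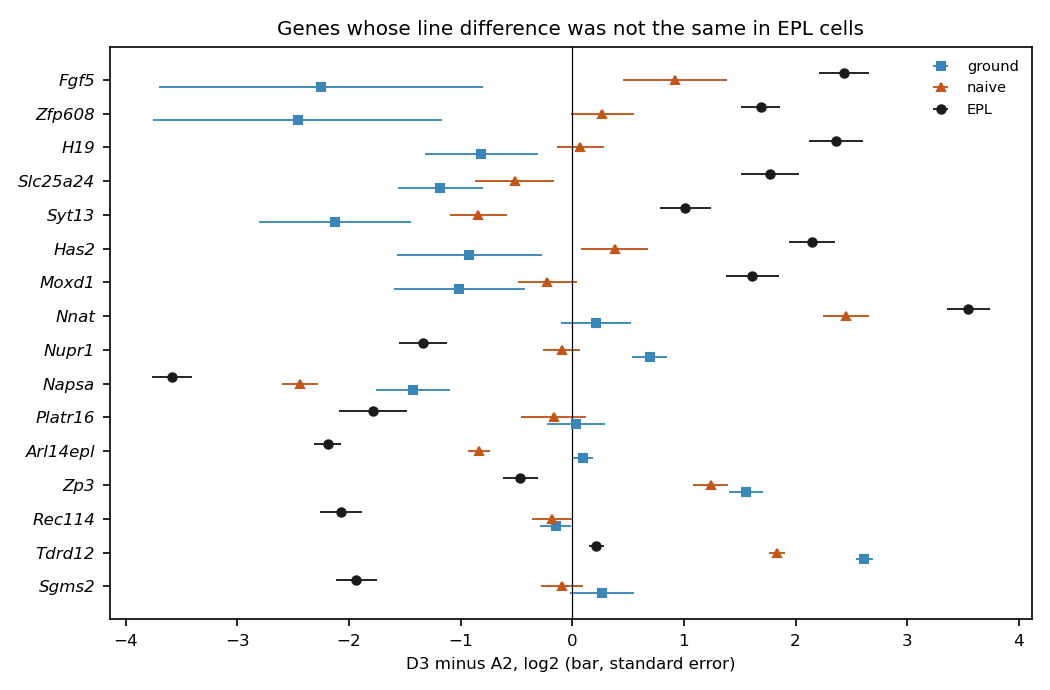
Log2 difference of D3 minus A2, with its standard error, in ground, naive and EPL cells for the 8 genes each way with the largest departure of the EPL difference from the other stages, among genes called in both tests with at least 5 CPM in an EPL group, clone names and pseudogenes left out. Fgf5 is at 2.44 in EPL cells against 0.92 in naive cells, whereas Sgms2 is at -1.93 against -0.09.

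Part of the line difference followed chromosome position and was nearly the same at every stage. On chromosome 1, 432 of 1025 tested genes were lower in D3 and 54 higher, and the median log2 difference was -0.33 in EPL, -0.40 in ground and -0.47 in naive cells. On chromosome 8, 467 of 864 were higher and 33 lower, with medians of 0.37, 0.30 and 0.42. The EPL medians of the other 17 autosomes were between -0.03 and 0.07. A stretch of chromosome 14 stood out below its surroundings. From Gulo to Trim52 (chr14:65986786-106135859, GRCm38) 96 of 131 tested genes were lower and 3 higher, with medians of -0.85 in EPL, -0.97 in ground and -0.91 in naive cells, whereas the other 420 genes of the chromosome had a median of 0.06. The ends of this stretch, and of those named next, were set after the values had been seen. No DNA measurement was analysed here.

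The pattern held in each library. After centring each gene over the libraries, the median for chromosome 1 was between 0.145 and 0.16 in the A2 EPL libraries and between -0.190 and -0.149 in the D3 EPL libraries. For chromosome 8 it was between -0.191 and -0.172 in A2 and between 0.152 and 0.189 in D3, and for the stretch of chromosome 14 between 0.405 and 0.444 in A2 and between -0.490 and -0.405 in D3. Chromosome 8 was not uniform. From Gm5117 to AY512931 (chr8:31737208-45065418), which holds Zfp42, 4 of 49 tested genes were higher and 10 lower (median -0.05), against 463 higher and 23 lower of the other 815 (median 0.39). On chromosome 2, from Snrpb to Itpa (chr2:130171414-130681614), 12 of 16 tested genes were higher and 0 lower (median 0.47), against a median of 0.02 for the rest of that chromosome.

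**Figure D4:**
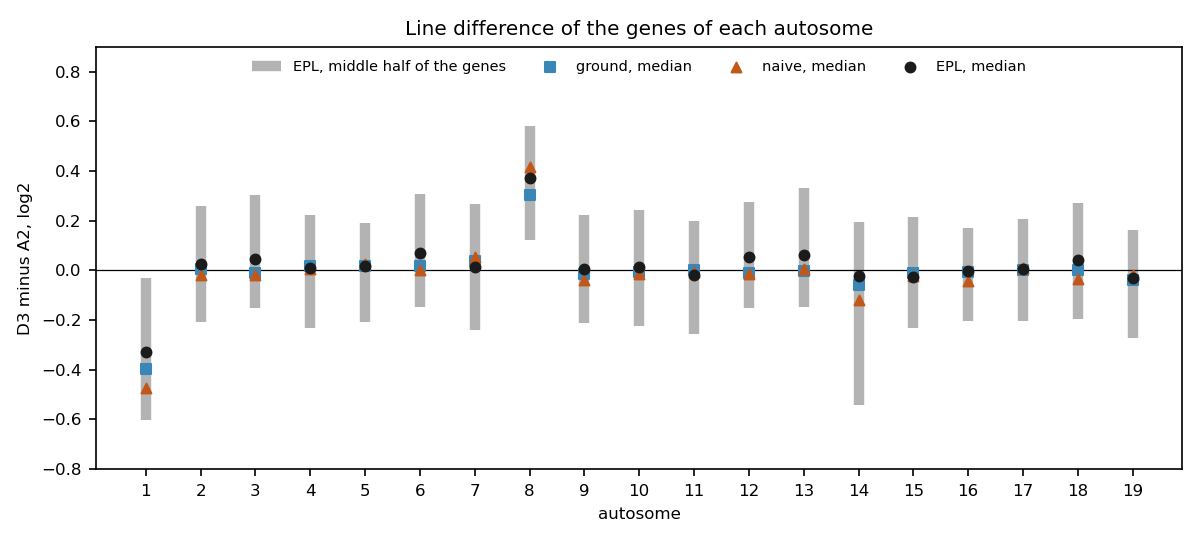
Line difference, D3 minus A2 on the log2 scale, of the tested genes of each of the 19 autosomes, with the medians in ground, naive and EPL cells as points and the range between the EPL quartiles as a grey bar. Chromosome 1 lies below 0 and chromosome 8 above 0 at each stage, and the other 17 medians in EPL cells lie between -0.03 and 0.07.

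**Figure D5:**
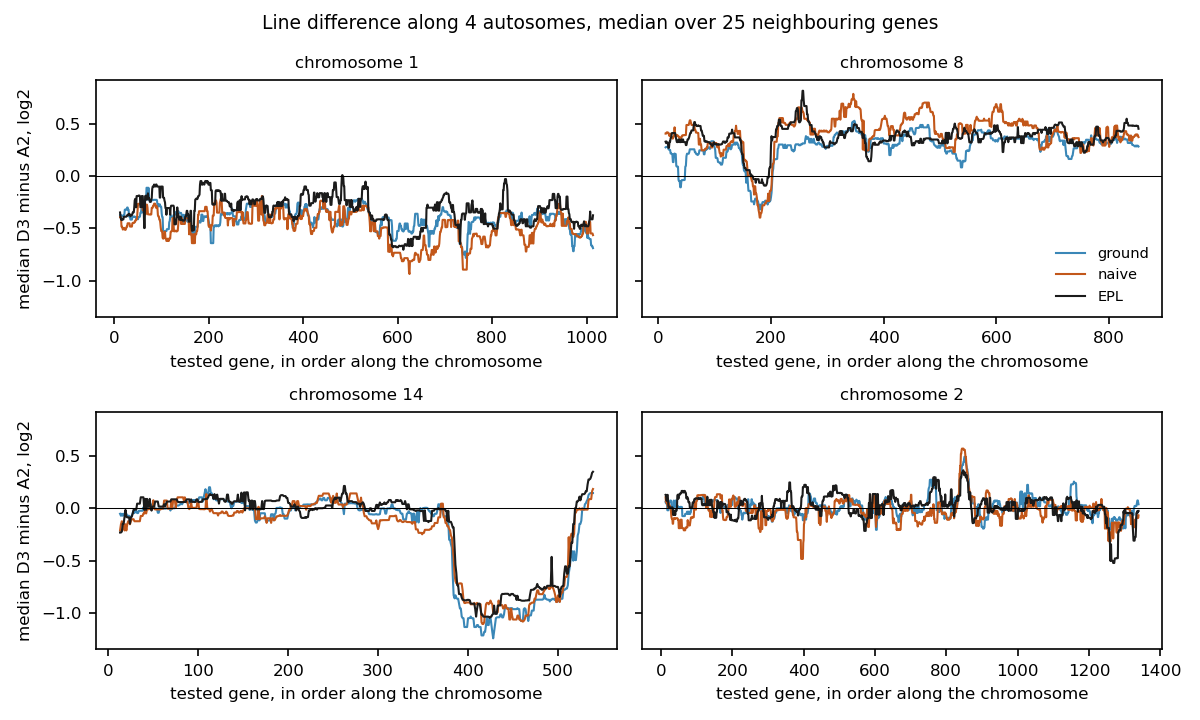
Median line difference (D3 minus A2, log2) over 25 neighbouring tested genes, in gene order along 4 autosomes, for ground, naive and EPL cells. The 3 lines run close together, below 0 along chromosome 1, above 0 along most of chromosome 8, and far below 0 in a stretch of chromosome 14 whose EPL median was -0.85.

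Genes of chromosome 1, chromosome 8 and the chromosome 14 stretch were 2020 (12.7%) of those tested, 1085 (23.2%) of those called in EPL cells, 18.4% of those called by at least 2-fold and 55.9% of those called in the same direction at all 3 stages. They were 13.4% of the genes whose EPL difference departed from the other stages, close to their share of the genes tested. Several naive factors are on these chromosomes. Tfcp2l1, Nr5a2, Prdm14 and Gbx2 are on chromosome 1, whose median is negative, and Klf5 is in the chromosome 14 stretch. Zfp42 and Klf2 are on chromosome 8, where both were lower in D3. The median of that chromosome is positive, but it was -0.05 in the part that holds Zfp42. Outside these regions 0 of 12 naive factors were higher and 9 lower, and with all genes of chromosomes 1, 8 and 14 left out of the fit 0 of 11 were higher and 9 lower. In that fit, which tests fewer members, primitive endoderm markers were 4 higher and 0 lower of 13, Nodal pathway genes 2 and 1 of 14, matrix genes 3 and 6 of 16, LIF-responsive genes 0 and 6 of 14, p53 targets 1 and 2 of 18 and apoptosis regulators 3 and 1 of 14. Genes named above for other reasons lie in these regions too. Spry2, Fgf17, Piwil2, Tnfrsf10b and Rb1 are in the chromosome 14 stretch, and Inhbb, Ackr3, Atp2b4 and Lamc1 are on chromosome 1. All of these were lower in D3, as were most called genes of their region. Nlrc5, Bst2, Nkd1, Mvd, Trim67 and Adcy7 are on chromosome 8 and were higher, as were most called genes there. The genes named here are examples, and other genes named above lie in these regions as well. Outside the regions the list of epithelial and mesenchymal identity had 8 higher and 3 lower members of 18. Cholesterol synthesis genes had 10 higher and 0 lower of 20 there. How much of each difference goes with its region was not tested. Outside the regions 3590 of 13846 genes (25.9%) were called.

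A further group of large differences concerned genes with near-identical copies. The ferritin light chain gene Ftl1, which encodes a subunit of the iron storage protein (ENSMUSG00000050708, chr7:45457944-45459884), had 708, 488 and 499 CPM in the A2 libraries and 2406, 2676 and 2747 CPM in the D3 libraries (log2 difference 2.21 ± 0.13). Its processed copy Ftl2-ps (chr4:125504288-125504839) had the reverse, with 697, 481 and 476 CPM in A2 and 0.973, 0.7 and 0.642 CPM in D3. Ftl1-ps2 (chr10:130592157-130592705) had 63.9, 42.0 and 49.4 CPM in A2, from 2652 counts, and 4 counts in D3. Mir692-1, a microRNA locus annotated within a ferritin copy (chr17:6895229-6895337), had 300 counts in A2 and 1 in D3, a ratio of 335 between scaled counts (95% interval 59.6 to 13259, counting error alone). Ftl1-ps1 had 18.7, 10.2 and 10.1 CPM in A2 and 20.2, 21.7 and 23.2 CPM in D3, which was not called. Ftl2-ps, Ftl1-ps2 and Mir692-1 thus differed between the lines by more than Ftl1 did, and Ftl1-ps1 by less.

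Over its 552 bases Ftl2-ps matches Ftl1 at 545 positions (98.7%) and Ftl1-ps1 at 547 (99.1%), so a short read can fit several of these genes, and the sources used here do not say how reads that fit several places were counted. The last 90 coding bases up to the stop codon of Ftl1 (bases 716 to 805 of Ftl1-201) and the matching stretches of Ftl2-ps (bases 463 to 552) and Mir692-1 (bases 4 to 93) show how little tells them apart. The sequences are from GENCODE release M21 on GRCm38, 5′ to 3′ on each gene's own strand, and capitals mark the bases that differ from Ftl1.
Ftl1: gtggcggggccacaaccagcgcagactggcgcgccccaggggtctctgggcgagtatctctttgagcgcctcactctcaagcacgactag
Ftl2-ps: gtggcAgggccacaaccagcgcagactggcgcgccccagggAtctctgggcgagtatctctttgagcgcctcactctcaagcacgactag
Mir692-1: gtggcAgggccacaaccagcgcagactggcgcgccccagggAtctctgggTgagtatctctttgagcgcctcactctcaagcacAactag

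Counted from 1 at the 5′ end of the stretch, with the base of Ftl1 first, Ftl2-ps differs by G6A and G42A, and Mir692-1 by G6A, G42A, C51T and G85A. Ftl1-ps1 has the same 2 differences as Ftl2-ps. The values of single members are therefore uncertain. The sum over Ftl1, Ftl2-ps, Ftl1-ps2 and Ftl1-ps1 is not changed by how reads are split among them. Reads left out for fitting several places would be missing from it, so the sum is uncertain too. This sum was 1181 ± 265 CPM (SD, n = 3) in A2, with 1487, 1021 and 1035 CPM in the 3 libraries, and 2632 ± 181 CPM in D3, with 2427, 2698 and 2771 CPM. The sum of counted reads was thus higher in every D3 library, by less than the difference of Ftl1 alone.

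The ribosomal protein gene Rps15a had the opposite arrangement. It had 978, 874 and 857 CPM in A2 and 501, 515 and 613 CPM in D3, while 6 of its processed copies were higher in D3. Rps15a-ps7 had 3.25, 2.96 and 3.14 CPM in A2 and 32.2, 33.7 and 37.8 CPM in D3, and Rps15a-ps8 had 0 counts in A2 and 240 in D3. Summed over these 7 genes, A2 had 910 ± 65.7 CPM and D3 619 ± 66.4 CPM (SD, n = 3), so this sum was lower in D3. It covers Rps15a and only the 6 copies described as higher in D3. How shared reads were counted is not known here either. Of the 38 autosomal genes called with at least a 4-fold difference and 5 CPM in the higher line, 12 were pseudogenes, against 921 (5.80%) of the genes tested.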

How the data were processed

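RNA was measured in 21 libraries. Column-purified total RNA, treated with DNase, went into TruSeq RNA v2 libraries, whose chemistry does not mark strand, per the labels' protocols. The authors deposited 1 table of raw counts per gene and library. HISAT2, SAMtools, featureCounts and the build GRCm38 are named in the submitters' processing notes. The sources used here give no versions, settings or annotation. All 39396 identifiers matched GENCODE M21, which supplied coordinates and transcript sequences. Symbols were missing for 53.

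The filter filterByExpr (minimum count 10, minimum total 15) kept 16575 genes, 15866 of them autosomal. One edgeR 4.0.16 quasi-likelihood model (R 4.3.3, TMM factors 0.976 to 1.007 in EPL libraries) was fitted to all 21 libraries with 1 mean for each of 7 groups and 14 residual degrees of freedom, and was tested on simulated counts first. P-values were adjusted by Benjamini-Hochberg over the genes tested. In addition to D3 against A2 in EPL, ground and naive cells, the EPL difference was tested against the mean of the other 2. Same-numbered EPL libraries of the lines did not deviate together, so numbers were not treated as pairs, although the series calls its samples paired.

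The comparison and the 36 gene lists were chosen with earlier results of these data known. Some genes are in several lists, so the lists are not independent. Named genes were the 12 largest differences each way (called, no overlap, at least 5 CPM in the higher line, clone names and pseudogenes left out), up to 4 called members of a list, the 8 largest departures from the other stages each way, genes with at most 3 counts in 1 line and 5 CPM in the other, and 14 pluripotency genes. Other members were named after their values were seen, and a few genes that the rule would name are not reported here. Intervals cover counting error only. Alternatives were other scalings, filters, DESeq2 1.42.0, a replicate block, the EPL libraries alone, each EPL library left out, and chromosomes 1, 8 and 14 left out (added after seeing the data). Promoter sequences matched 72.2% of genes tested, under the 80% needed, so promoters were not compared.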

Additional observations from a re-analysis of the deposited data

Results flagged for a closer look

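The line difference in EPL cells was tested against the mean of the line differences in ground and naive cells, and 2561 autosomal genes were called. Named here are the 8 genes with the largest departures in each direction among those also called in EPL cells with at least 5 CPM in 1 of the lines, clone names and pseudogenes left out, with values of the EPL difference minus that mean on the log2 scale. Towards higher values in D3 they were Fgf5 (3.10), Zfp608 (2.78), H19 (2.73), the mitochondrial carrier gene Slc25a24 (2.62), the synaptotagmin gene Syt13 (2.49), Has2 (2.42), Moxd1 (2.23) and Nnat (2.22). Towards lower values they were the sphingomyelin synthase gene Sgms2 (-2.02), Tdrd12 (-2.01), the meiotic recombination gene Rec114 (-1.91), the egg coat gene Zp3 (-1.86), Arl14epl (-1.82), Platr16 (-1.72), Napsa (-1.65) and Nupr1 (-1.64). Tdrd12, a piRNA pathway gene, was 2.62 in ground, 1.83 in naive and 0.22 in EPL cells, so a difference present in the other stages was nearly gone. Zfp608 was -2.46 in ground, 0.27 in naive and 1.69 in EPL cells. Tdrd12 and Zp3 are named here only through EPL calls that were not stable. The EPL call of Tdrd12 was lost without A2 or D3 library 1 or 3, without a filter on low counts and in the fit of the 6 EPL libraries alone. That of Zp3 was lost without A2 or D3 library 2 or 3. The cut on level was applied to EPL cells only. Fgf5 was barely detected in ground cells of either line, as given above, so its 3.10 rests in part on very few ground counts. Set against naive cells alone, the departure of Fgf5 was 1.52 and was not called (adjusted p = 0.074), and the other 15 genes kept their calls.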

How the results depend on the processing

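Under each alternative the 5 counts of called genes stayed within 1.5 times their reported values. The 4675 genes called in EPL cells became 4667 with RLE size factors, 4695 with scaling to the total count, 4584 without a filter on low counts, 4651 with a stricter one, 4641 with DESeq2, 4552 from the 6 EPL libraries alone, 3357 without chromosomes 1, 8 and 14, and 3469 to 4681 when 1 EPL library was left out. Of these, 4478 were shared in direction with DESeq2 and 4109 with the fit without A2 library 1. The genes called by at least 2-fold numbered 855 to 1284 over all settings, and the departures from the other stages 1853 to 2817, with 2024 against naive cells alone.

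With the replicate number as a block, 4577 genes were called in EPL cells, 1070 of them by at least 2-fold, and 2464 for the departure, 3121 in ground and 4638 in naive cells. The deviations of same-numbered EPL libraries of the lines correlated at -0.165, 0.00118 and -0.0426, so no pairing between the lines was seen in EPL cells. Pairing of same-numbered libraries across the stages of a line was not checked. The test of the departure treats the libraries as independent.

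Of 162 named genes, 159 were called in EPL cells and 155 of these had no overlap between lines. Most were named because they were called, and some because they had no overlap, so these counts follow largely from the naming rule. The counts that come next describe these chosen genes only, in fits that share most libraries. No difference reversed under any of 14 settings, 136 kept their call under every setting that fitted them, and 23 lost it under at least 1. Beside those given in the report, Slc16a3 was called at 0.90 and lost its call with DESeq2 (adjusted p = 0.080) and without any 1 EPL library, Bcl2l11 and Mtr lost theirs with total-count scaling. Without single libraries, calls were lost by Jam2, Ifitm1, Srgn and Sox17 in 4 of 6 fits, by Fbxo15, Ldhb, Phlda2 and Amn in 3, by Krt7 without A2 library 2 or D3 library 3, by Id2 without A2 or D3 library 2, by Dhcr7 and Tcf7 without A2 library 2 or 3, by Stc2 without A2 library 3 or D3 library 1, by Ccne2 without A2 library 1 or D3 library 3, by Gata4 and Col4a2 without D3 library 2, by Tcl1, Pim1 and Pdgfra without A2 library 1, by Id1 and Tap2 without A2 library 2, and by Sfrp2 without A2 library 3. Tagln lost its call without A2 library 3 and without D3 library 3. Scaling moved the median of all differences by -0.007 (RLE) and 0.016 (total count). Members of low count, such as Psmb8, Tcstv1 and the streak genes, are limited by depth.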
